A study of Rattus norvegicus with 7 samples.

Results

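Pax2, Pax8, Lhx1, Sall1, Emx2, Gata3, Bmp7, Wnt9b and Wnt7b are 9 genes that regulate how nephrons and collecting ducts form, and their RNA was measured in nuclei of the young rat kidney. They were chosen by their gene symbols, and all 9 were found among the 25399 genes of the deposited feature tables, each under 1 identifier. The rats belonged to the HSRA line (heterogeneous stock-derived model of unilateral renal agenesis), in which some animals are born with a single kidney. All 7 libraries came from archived kidneys of 4-week-old animals, 1 central piece of cortex and medulla each, and from animals that were also used for methylation sequencing. By their titles, 3 libraries belonged to animals with 1 kidney and 4 to animals with 2. The animal counts in the labels are 3 for HSRA-S and 4 for HSRA-C, with neither name tied to a library. No treatment is named for either group. Each library was taken as 1 animal, since each title has a number of its own, and the labels used here state no sex. The libraries were made from single nuclei with 10x Genomics 3' chemistry, version 3.1.

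The kidney forms where the ureteric bud, which becomes the collecting duct, meets a mesenchyme of nephron progenitors. The paired-box factors Pax2 and Pax8 act in both lineages, and Lhx1 (a LIM homeodomain factor), Emx2 and Gata3 are needed in the bud and its derivatives or in the early tubule, while Sall1, a zinc-finger factor, and the ligand Bmp7 maintain the progenitors. Wnt9b is the signal of the bud that starts nephron formation, and Wnt7b is a collecting duct signal needed for the renal medulla to elongate. In the mature kidney Pax2, Pax8, Emx2 and Gata3 remain expressed in parts of the epithelium.

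RefSeq (assembly GRCr8) gave a promoter for 5 of the 9 genes, as 250 bases before and 50 bases after the start. The 4 printed here belong to the pair of genes with the group difference described below, Pax2 and Pax8, and to 2 genes whose RNA was highest in collecting duct principal cells, Wnt9b and Gata3. Capitals mark GC boxes (GGGCGG, or CCGCCC on the other strand). The windows are chr1:253565672-253565971 on the plus strand for Pax2, chr3:27640582-27640881 on the minus strand for Pax8, chr10:89157016-89157315 on the minus strand for Wnt9b and chr17:73553298-73553597 on the plus strand for Gata3.
Pax2: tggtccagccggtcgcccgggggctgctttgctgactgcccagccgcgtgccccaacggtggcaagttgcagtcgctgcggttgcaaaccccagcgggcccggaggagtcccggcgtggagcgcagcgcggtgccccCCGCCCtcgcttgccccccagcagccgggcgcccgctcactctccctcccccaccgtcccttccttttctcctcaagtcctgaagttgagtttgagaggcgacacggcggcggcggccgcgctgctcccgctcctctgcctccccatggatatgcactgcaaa
Pax8: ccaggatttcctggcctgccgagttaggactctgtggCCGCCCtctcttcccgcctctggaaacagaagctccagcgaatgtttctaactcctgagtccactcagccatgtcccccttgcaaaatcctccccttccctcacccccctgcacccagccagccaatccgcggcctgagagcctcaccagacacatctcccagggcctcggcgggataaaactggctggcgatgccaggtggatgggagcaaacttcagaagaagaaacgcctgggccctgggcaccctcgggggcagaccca
Wnt9b: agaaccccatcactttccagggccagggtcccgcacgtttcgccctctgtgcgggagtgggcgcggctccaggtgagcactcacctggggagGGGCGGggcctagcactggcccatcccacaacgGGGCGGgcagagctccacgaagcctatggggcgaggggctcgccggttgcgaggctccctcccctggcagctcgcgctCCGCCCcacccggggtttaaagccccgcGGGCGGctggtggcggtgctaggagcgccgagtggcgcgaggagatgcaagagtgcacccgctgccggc
Gata3: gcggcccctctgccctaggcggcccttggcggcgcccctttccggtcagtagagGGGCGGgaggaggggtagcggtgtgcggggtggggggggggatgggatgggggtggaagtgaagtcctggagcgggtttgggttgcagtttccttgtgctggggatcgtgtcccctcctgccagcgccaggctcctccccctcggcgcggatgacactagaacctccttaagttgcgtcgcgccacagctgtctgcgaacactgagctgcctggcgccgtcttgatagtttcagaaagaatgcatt
A GC box was found 4 times in the Wnt9b window, 2 times in that of Lhx1 and 1 time each in those of Pax2, Pax8 and Gata3. Over all 33469 promoters of the table, 33.1% held at least 1. The dinucleotide CG occurred 29 times in the Pax2 window, 28 in that of Wnt9b, 23 in that of Lhx1, 20 in that of Gata3 and 11 in that of Pax8, against a median of 7 over all promoters. On both strands, the TATA box TATAAA was searched for, as were the GATA-type site AGATAA and the HNF1-type site GTTAAT. None of them was in the 5 windows, and they were held by 14.2%, 11.6% and 7.45% of all promoters. The promoters of Sall1, Emx2, Bmp7 and Wnt7b are not shown.

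The files held 37048 barcodes, of which 30978 were kept as nuclei, 2240 to 5922 per library, with 5491945 to 26488837 unique molecular identifiers (UMIs, each counting 1 captured RNA molecule). 1-kidney replicate 1 was the smallest library, and its group had median UMIs per nucleus of 1417 to 1965.5, against 1873 to 2495 in the 2-kidney group. Across libraries 115 barcodes recurred, at most 10 in any pair. By their names, 2-kidney replicates 3 and 4 form a set P1117B and the other 5 libraries a set P1117. The sources used here do not say what the sets are. Because P1117B lacks a 1-kidney library, part of the results of the 9 genes is given within P1117 as well. Results of the gene lists are given for all libraries only. Nuclei were clustered without the 9 genes, and 15 classes were named from markers of kidney cell types. Each name stands for nuclei like that type (principal cell-like and so on). The 5 clusters left unnamed were those that showed markers of several classes. They held 20.7% of nuclei, 45.6% of all UMIs and 23.4% to 51.6% of each gene's UMIs. No cluster was named as nephron progenitors. Of 6 progenitor markers, Six2, their defining factor, had 1 UMI in all libraries, Lypd1 115, Cited1 166, Meox1 386, Eya1 2657 (14 to 28.3 CPM) and Crym 3064 (19.1 to 29 CPM).

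Levels are given in CPM, a gene's share of all UMIs summed over the nuclei of a class in a library, scaled to 1000000, as mean ± SD over libraries. RNA released from broken nuclei reaches every droplet, and classes that should lack a gene therefore set its background. Since classes were made from the same nuclei, levels across them are a description.

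Pax2 was highest in the collecting duct and thin limb. Its level was 824 ± 484 CPM in principal cells (7 libraries, 245 to 1687), the water- and sodium-handling cells of the collecting duct, and 758 ± 461 in the thin limb of the loop of Henle (6 libraries, 312 to 1534). Connecting tubule (349 ± 100.3), intercalated cells (258 ± 152), the acid-base cells of the same ducts, and thick ascending limb (252 ± 118) followed, and each overlapped its neighbours in the order over libraries. Endothelium, fibroblasts and immune cells had 98.6, 117 and 139 CPM, so the principal cell mean was 5.93 times the highest of these 3. Podocytes were lowest, at 55.2 ± 5.92.

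Pax8 was spread over more of the nephron. It was highest in thin limb (1579.9 ± 776 CPM, 6 libraries) and principal cells (1172 ± 287, 7 libraries), whose ranges overlapped. Proximal tubule, the main site of reabsorption, was the third at 662 ± 105 and lay below principal cells in 7 of 7 libraries. Among the classes taken as background, immune cells had 395 CPM, fibroblasts 286 and endothelium 242, so the background was not a single level. Of the other 12 classes, 8 lay above the immune level, by at most 4 times. A class below the immune level was not thereby shown to lack Pax8. Podocytes again had the least, 109.8 ± 32.

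Lhx1 marked the distal convoluted tubule. The 7 libraries had 181, 199 and 187 CPM (1-kidney) and 187, 139, 184 and 231 CPM (2-kidney) there, which is 187 ± 27.2. Connecting tubule had 80.4 ± 16.2 and intercalated cells 38.1 ± 12.9, and the ranges of distal convoluted tubule, connecting tubule and intercalated cells did not overlap. Principal cells (35.6 ± 11.1) overlapped intercalated cells. The background was 13.8 CPM or less, and thin limb had 1.23, from 2 UMIs. Of all Lhx1 UMIs, 20.4% lay in distal convoluted tubule and 47.5% in unnamed clusters, which held 45.6% of the UMIs of all genes.

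Gata3 followed the collecting system. Principal cells had 738 ± 189 CPM and urothelium, the lining of the pelvis, 632 ± 138 (4 libraries), and their ranges overlapped. Connecting tubule came next at 334 ± 39.8, below the range of urothelium, with mural cells, which wrap vessels, at 312 ± 94.9 and intercalated cells at 225 ± 16.2. Distal convoluted tubule had 135 ± 16.8, a range below that of intercalated cells and above that of the next class. Proximal tubule had 9.03 CPM, under the 28.6 CPM of endothelium. Of all Gata3 UMIs, 31.4% were in principal cells.

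Emx2 had 199 ± 44.5 CPM in principal cells, 131 ± 55.6 in connecting tubule and 113 ± 27.7 in cycling nuclei, with overlapping ranges. Immune cells had 82.5 CPM, the level of distal convoluted tubule and intercalated cells (83.3 each). Sall1 had the flattest pattern among the transcription factors. It was 243 ± 96.7 CPM in thin limb and 212 ± 34.1 in thick ascending limb, only 1.43 times the 169.8 CPM of immune cells at the most, and was 57.5 ± 28.2 in principal cells and 34 in podocytes.

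Among the ligands, Wnt9b was nearly limited to principal cells. The libraries had 93.7, 3.88 and 50.7 CPM (1-kidney) and 210.2, 60.8, 252 and 45.7 CPM (2-kidney), a mean of 102 ± 92.6 and 35.7 times the 2.86 CPM of endothelium. The lowest library was in the 1-kidney and the highest in the 2-kidney group, with the other 5 intermixed. Principal cells held 66.4% of the 726 Wnt9b UMIs, and no other named class had a mean above 6.18.

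Wnt7b was highest in thin limb, 293 ± 113 CPM (6 libraries), followed by urothelium with 163 ± 42.5 (4 libraries), thick ascending limb with 83.8 ± 28.4 and principal cells with 59.1 ± 19.3, against a background of 14.7 or less. Within thick ascending limb the 2 clusters differed. The larger one had 46.4 to 140.2 CPM in the 7 libraries, while the smaller one had 0 UMIs in each 1-kidney library and at most 27.6 CPM, from 3 UMIs, in a 2-kidney library. An unnamed cluster led by Fst and Akap12 had 86 to 157 CPM.

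Bmp7 was highest in podocytes, the filter cells of the glomerulus, with 131, 175 and 161 CPM in the 1-kidney and 164, 188, 256 and 174 CPM in the 2-kidney libraries. That mean, 178 ± 38.5, was 1.63 times the 109 CPM of immune cells, and the remaining classes lay between 34 and 111.

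**Figure D1:**
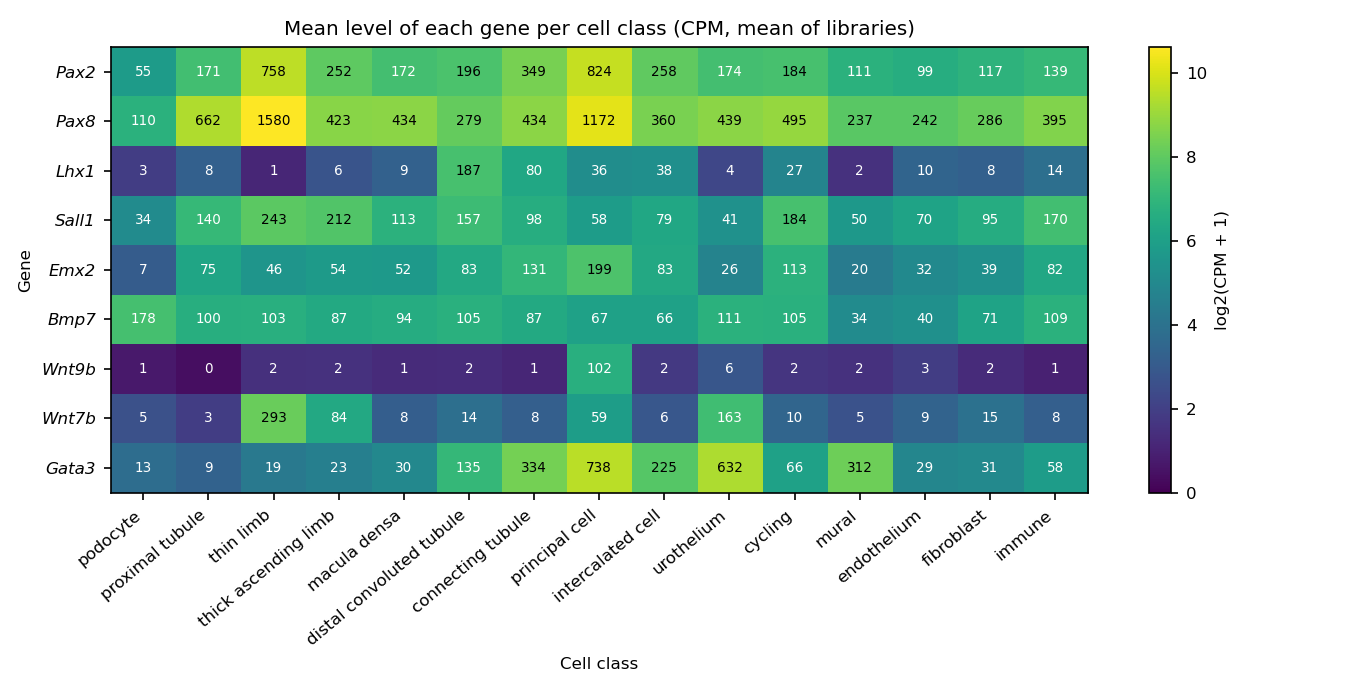
Mean level of each gene (rows) in each of the 15 classes (columns), in CPM as printed in the cells and on a log2(CPM + 1) colour scale. Principal cells were the highest class for Pax2, Emx2, Wnt9b and Gata3 (824, 199, 102 and 738 CPM), distal convoluted tubule for Lhx1 (187) and podocytes for Bmp7 (178).

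The share of nuclei with at least 1 UMI of a gene was taken after thinning each nucleus to 1000 UMIs. Shallower nuclei were left out, given here as 1-kidney and then 2-kidney nuclei: 88 and 106 for principal cells, 493 and 768 for endothelium, 54 and 154 for thin limb, 167 and 93 for distal convoluted tubule, 20 and 35 for podocytes and 14 and 20 for urothelium. This kept 1429 of 2690 endothelial and 261 of 469 thin limb nuclei. Pax2 was seen in 48.6% ± 23.1 of thin limb nuclei (5 libraries, of which 1 was 1-kidney; unthinned 49.5%). It was seen in 46.6% ± 20.2 of principal cell nuclei (median depth before thinning 2193.5 UMIs) and in 9.7% of endothelial nuclei (1523 UMIs). Without thinning the shares were 64.3% and 11.4%. Gata3 was seen in 50.8% ± 8.38 of principal cells, 49.2% of urothelial nuclei and 2.36% of endothelium, and Lhx1 in 16.9% ± 2.6 of distal convoluted tubule against 1.18% of endothelium. Unthinned, these were 69.1%, 64.9%, 3.42%, 28.3% and 1.31%. Bmp7 was seen in 16.4% ± 3.51 of podocytes and 2.85% of endothelium, and Wnt9b in 8.33% ± 7.02 of principal cells and 0.213% of endothelium (unthinned 37.3%, 4.72%, 14.3% and 0.427%). Pax8 was seen in 73.6% ± 12.5 of thin limb nuclei, over the same 5 libraries, and in 19.6% of endothelial nuclei (unthinned 68.1% and 25.3%). Sall1 was seen in 17.9% of immune, 17.4% of thick ascending limb and 16.2% of thin limb nuclei (unthinned 29.9%, 24.0% and 24.5%), an order that differed from its CPM.

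Over the 15 classes, Pax8 and Pax2 were the most alike pair among the 9 genes (Pearson r = 0.894 of log2(CPM + 1), classes drawn from the same libraries, 6 of them for thin limb and 4 for urothelium). Among 13973 genes, those most like Pax2 included Cdkl1 (0.919) and Tle2 (0.919), and those most like Wnt9b were Slc14a2 (0.948), which encodes urea transporters of the inner medulla, Nipal1 (0.938) and Aqp4 (0.927), a water channel of principal cells. The gene most like Lhx1 was LOC102553190 (0.96), that most like Gata3 was Sowahc (0.921) and that most like Emx2 was Amd1 (0.951). Ppp1r36 (0.926) was most like Pax8, Rxrb (0.915) most like Sall1, Proser2 (0.914) most like Wnt7b and AABR07034767.1 (0.826) most like Bmp7. These are descriptions over 15 points, with levels of differing depth.

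The second question was whether the genes differed between kidneys of 1-kidney and 2-kidney animals. Pax2 and Pax8 RNA was lower in every 1-kidney library than in every 2-kidney library over all retained nuclei, and Sall1 was higher, but none of the 9 genes passed the test over all genes. With nuclei summed per library, fewer cells that express a gene and less RNA per cell cannot be told apart. Of the 14877 genes tested with edgeR's quasi-likelihood test, 0.0% passed an adjusted p of 0.05 (Benjamini-Hochberg). At an unadjusted p under 0.05, 3042 genes (20.4%) and 3 of the 9 passed. Among all genes 10.9% were lower and 8.09% higher in the 1-kidney libraries with no overlap of the groups, and among the 9 genes 2 were lower and 1 was higher.

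Pax2 measured 106, 130.5 and 158 CPM in the 1-kidney and 238, 209, 301 and 321 CPM in the 2-kidney libraries. The means were 132 ± 25.8 (SD, n = 3) and 267 ± 52.8 (n = 4), and the lowest 2-kidney library lay above the highest 1-kidney library. The log2 fold change (1-kidney over 2-kidney) was -1.0 ± 0.20 (SE; edgeR unadjusted p = 0.000628, adjusted p = 0.167), the 52nd smallest p of all genes. The exact permutation test of the difference in log2(CPM + 1) gave 0.0286, the smallest p that 3 against 4 libraries allow. DESeq2, which called 480 genes, gave an adjusted p of 0.00121 for Pax2.

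Pax8 measured 363, 374 and 442 CPM against 529, 501, 622 and 724 CPM, again without overlap. The log2 fold change was -0.57 ± 0.18 (edgeR adjusted p = 0.18; exact permutation p = 0.0286), and DESeq2 gave an adjusted p of 0.0459. Sall1 measured 196, 149.7 and 149 CPM against 146, 133, 131 and 128, a log2 fold change of 0.32 ± 0.14 (edgeR adjusted p = 0.229; exact permutation p = 0.0286). The nearest Sall1 libraries of the groups, at 149 and 146 CPM, lay far closer than the SD of 26.9 in the 1-kidney group.

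Emx2 measured 103, 93.6 and 80.2 CPM against 98.4, 79.9, 58.9 and 61.6, and the groups overlapped (0.34 ± 0.18, edgeR adjusted p = 0.292). Gata3 measured 79, 61.2 and 97.9 CPM against 122, 88.4, 83.4 and 74.7 (-0.18 ± 0.19, edgeR adjusted p = 0.591). Lhx1 measured 24.6, 27 and 27 CPM against 27.7, 24.3, 28.3 and 26.2 and had a log2 fold change of 0.01 ± 0.13. Of these 3 transcription factors none separated the groups.

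The ligands overlapped between groups as well. Wnt9b measured 4.73, 0.437 and 2.98 CPM against 15.4, 2.9, 11.5 and 2.91 (-1.69 ± 0.77, edgeR adjusted p = 0.249), the largest fold change of the 9 and the largest error. 2-kidney replicates 1 and 3 were high, and the other 2-kidney libraries lay inside the 1-kidney range. Wnt7b measured 16, 7.12 and 26.8 CPM against 23, 27.7, 17.1 and 24.2 (-0.43 ± 0.37), which became -0.05 without 1-kidney replicate 2 and -1.02 without 1-kidney replicate 3. Bmp7 measured 80.3, 107 and 94.3 CPM against 119, 102, 116 and 102 (-0.20 ± 0.14).

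**Figure D2:**
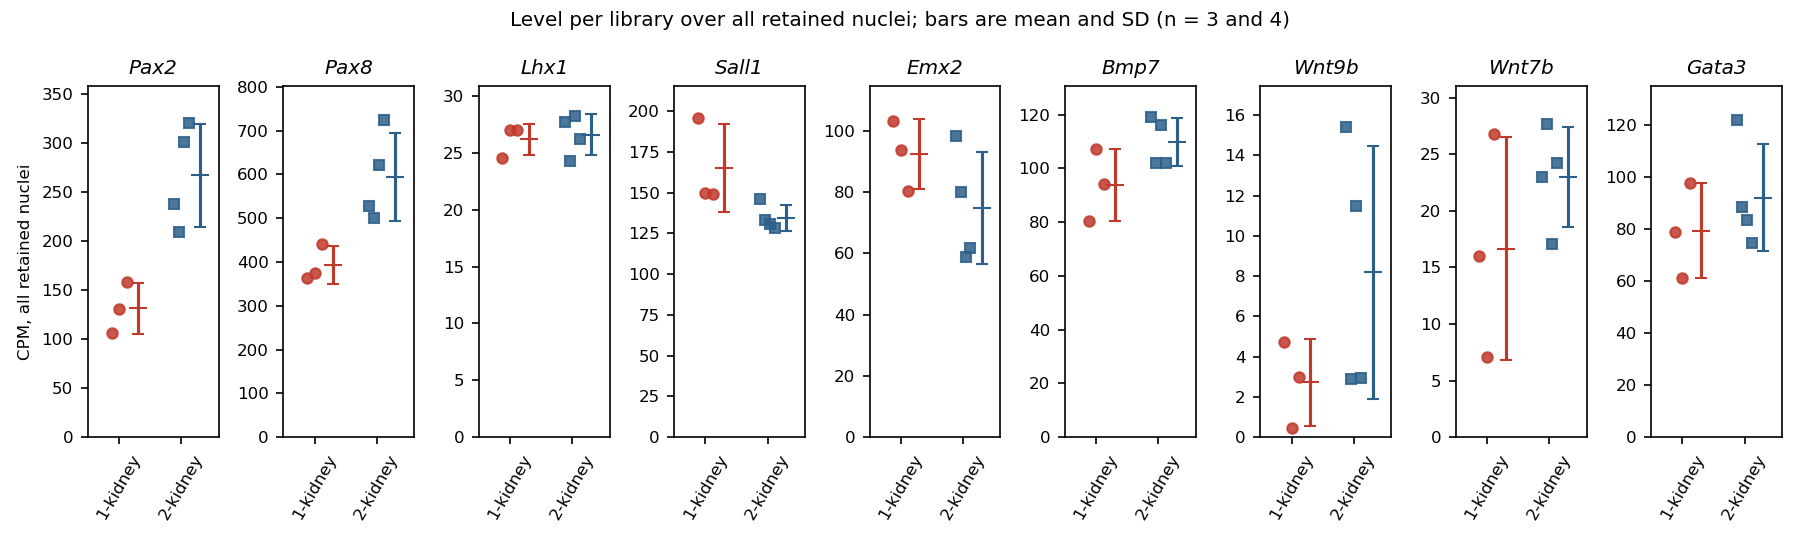
CPM of each gene over all retained nuclei, 1 point per library (red circles 1-kidney, n = 3, blue squares 2-kidney, n = 4), with bars for mean and SD and a separate axis from 0 for each gene. The groups did not overlap for Pax2 (132 against 267 CPM on average), Pax8 and Sall1.

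With the mix of classes held equal across libraries, the log2 ratio of group means was -0.98 for Pax2 and -0.55 for Pax8, close to the values above, and 0.26 for Sall1, whose groups then overlapped. Within set P1117, as 3 libraries against 2, the log2 fold change over all nuclei was -0.72 ± 0.16 for Pax2 (edgeR adjusted p = 0.238), -0.36 ± 0.14 for Pax8, 0.27 ± 0.15 for Sall1 and 0.09 ± 0.14 for Emx2. The 2 libraries of set P1117B had the highest Pax2 and Pax8 of all and the lowest Emx2.

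Within classes, each tested over its own genes, Pax2 had a log2 fold change below 0 in 10 of 10 classes, from -1.48 to -0.05, and 0 of the 68 tests of the 9 genes passed with edgeR. The filter on low counts kept 4 to 9 of the 9 genes per class, Pax2, Pax8, Sall1 and Bmp7 in all 10 and Wnt9b in 1. At an unadjusted p under 0.05, 19 of the 68 passed, beside 14.5% of 75654 tests of all genes by class. Pax2 had 8 of these 19 and did not overlap between groups in 7 of 10 classes. Of the 4843 genes tested in all 10 classes, 13.7% lay below 0 in every one, and 16 (0.33%) were lower without overlap in 7 or more.

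Of these 10 classes, principal cells had the widest Pax2 difference. The libraries measured 245, 427 and 554 CPM (1-kidney) and 1097, 794, 1687 and 966 CPM (2-kidney), means of 409 ± 156 and 1136 ± 388. The groups did not overlap, and the log2 fold change was -1.48 ± 0.31 (edgeR adjusted p = 0.115; exact permutation p = 0.0286), the 14th smallest p of 8286 genes. Thinned to 1000 UMIs, 28.1% ± 13.4 of 1-kidney and 60.5% ± 10.1 of 2-kidney principal cell nuclei had a Pax2 UMI. In this class 0.0% of genes passed the adjusted threshold and 6.78% were lower in the 1-kidney libraries without overlap, as were Pax2, Pax8 and Lhx1 (3 of 9).

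In intercalated cells Pax2 measured 112, 127 and 176 CPM against 216, 232, 463 and 480.3 (-1.27 ± 0.29, edgeR adjusted p = 0.207), without overlap. The 2 highest libraries were those of set P1117B. Of 6693 genes 0.0% passed and 6.19% were lower without overlap, among them Pax2 and Bmp7. Each of the 2 intercalated clusters alone gave -1.17.

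In thick ascending limb Pax2 measured 121, 181 and 176 CPM against 239, 213, 404 and 429 (-0.99 ± 0.26, edgeR adjusted p = 0.111). The groups did not overlap, and set P1117B was again highest. Here 0.142% of genes passed and 7.3% were lower without overlap, Pax2 alone among the 9. In distal convoluted tubule Pax2 measured 127, 132 and 112 CPM against 187, 153, 316 and 344 (-1.02 ± 0.26, edgeR adjusted p = 0.123), also without overlap, where 0.0% of genes passed and 6.54% were lower without overlap. In connecting tubule the groups touched, with 201, 303 and 306 CPM against 385, 303, 480.5 and 466 (-0.58 ± 0.20, edgeR adjusted p = 0.179), where 0.245% of genes passed and 7.14% were lower without overlap, none of the 9 tested there among them.

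In proximal tubule Pax2 measured 89.4, 148 and 147 CPM against 218, 198, 195 and 201 (-0.68 ± 0.18, edgeR adjusted p = 0.244; exact permutation p = 0.0286), without overlap. Of the genes tested there 0.0% passed and 6.73% were lower without overlap, among them Pax2 and Pax8. The 2 proximal tubule clusters alone gave -0.68 and -0.97. The second made up 3.73% ± 0.697 of 1-kidney nuclei and 9.97% ± 4.37 of 2-kidney nuclei (exact permutation p = 0.114). The groups overlapped for this share, with 3.89% in 2-kidney replicate 1, and set P1117B was highest, with 14% and 12%. In cycling nuclei Pax2 had -0.60 ± 0.20, and Pax2, Pax8 and Bmp7 were lower without overlap, beside 8.39% of genes, while 0.025% of genes passed.

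Pax2 was also lower without overlap in endothelium, a class taken as background. It measured 57.4, 58.4 and 79.1 CPM against 133, 125, 118 and 119.8 (-0.89 ± 0.23, edgeR adjusted p = 0.175), with 0.0776% of genes passing and 6.18% lower without overlap. In podocytes it was 53.9 ± 5.85 against 56.2 ± 6.65 CPM (-0.05 ± 0.28), with 0.0325% of genes passing, 5.79% lower and 4.41% higher without overlap. In fibroblasts it was 101 ± 12.7 against 128 ± 42.3 CPM (-0.29 ± 0.29), with 0.837% passing, 9.22% lower and 6.49% higher without overlap. The only non-overlap among the 9 genes in these last 2 classes was Sall1, higher in the 1-kidney libraries. Thin limb fell short of 50 nuclei per library, with 23, 0 and 51 in the 1-kidney libraries and 23 in 2-kidney replicate 2. Tested as 2 libraries against 4, it gave -1.48 ± 0.50 for Pax2.

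The Pax2 calls rested on the processing. DESeq2 passed Pax2 in principal cells (adjusted p = 0.00098), thick ascending limb (0.0315) and proximal tubule (0.0461), and edgeR without the filter on low counts passed it in principal cells (adjusted p = 5.16e-06), intercalated cells (0.000143), thick ascending limb (0.00107) and distal convoluted tubule (0.00229). Other genes passed with these 2 settings as well, and they are counted in the closing section. Leaving out 2-kidney replicate 1 gave edgeR adjusted p values of 0.0159 in intercalated cells, 0.0299 in thick ascending limb, 0.0307 in distal convoluted tubule, 0.031 in cycling nuclei and 0.0477 in principal cells. That run kept 2-kidney replicates 2, 3 and 4, of which 3 and 4 form set P1117B. Many other genes passed in runs with a library left out too. Depending on the library left out, 0 to 34 genes passed in intercalated cells, 0 to 181 in thick ascending limb and 0 to 107 in distal convoluted tubule. In cycling nuclei the range was 0 to 646 and in principal cells 0 to 64. Within set P1117, Pax2 stayed below 0 in 8 of 10 classes and was above 0 in fibroblasts (0.13) and podocytes (0.03). It was -1.23 ± 0.30 in principal cells, -0.95 in endothelium and -0.69 in proximal tubule. Values nearer 0 than with all libraries were seen in intercalated cells (-0.64), distal convoluted tubule (-0.48), thick ascending limb (-0.47), cycling nuclei (-0.44) and connecting tubule (-0.33).

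**Figure D3:**
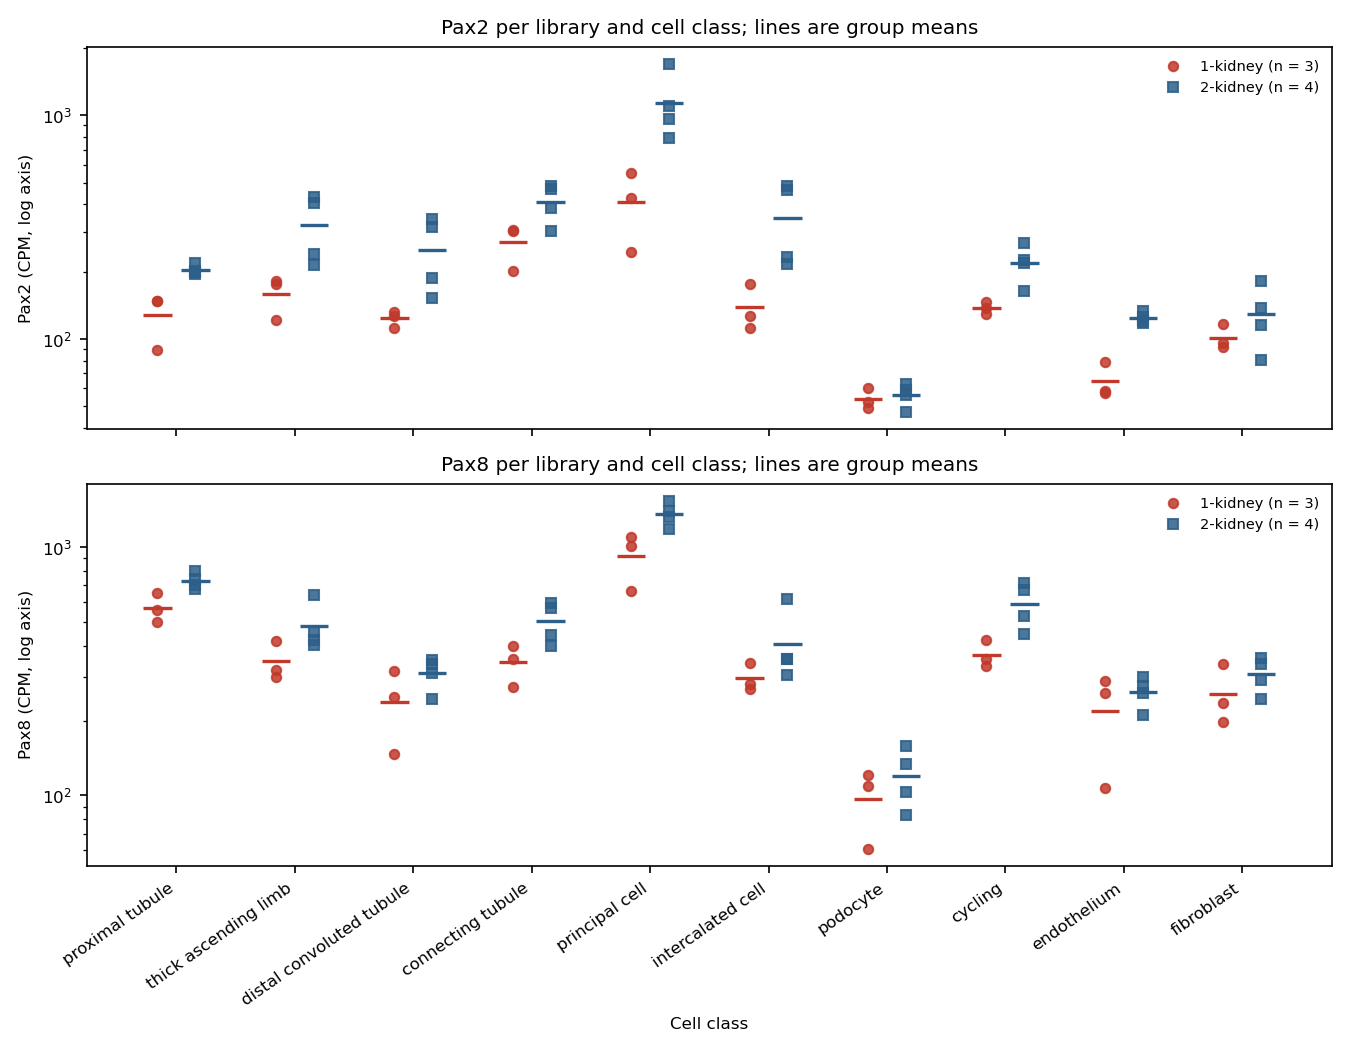
Pax2 (top) and Pax8 (bottom) in CPM on a log axis in the 10 tested classes (50 or more nuclei per library), 1 point per library (red 1-kidney, blue 2-kidney) and lines for group means. Pax2 groups were apart in 7 classes, widest in principal cells (409 against 1136 CPM), and level in podocytes.

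RNA of proximal tubule cells differed between the groups in some classes too. All 12 proximal tubule markers had UMIs in each of the 9 other tested classes. Their summed level was higher in the 1-kidney libraries without overlap in connecting tubule (15007 to 19338 against 7188 to 14561 CPM), distal convoluted tubule (18508 to 21997 against 7552 to 18485), endothelium (17530.1 to 20251 against 6707 to 16859) and fibroblasts (25189 to 35010.1 against 11830.3 to 21628). In principal cells it was 15307 to 23565 against 3439 to 15930.4 CPM, with overlap. The groups also overlapped in cycling nuclei, intercalated cells, podocytes and thick ascending limb. In distal convoluted tubule 2-kidney replicates 1 and 2 had 18394 and 18485 CPM, while replicates 3 and 4, set P1117B, had 9771 and 7552. Set P1117B was also lowest in connecting tubule, endothelium, fibroblasts and principal cells. The marker list held at most 4.45% of a class's UMIs, and its part in the Pax2 and Pax8 differences was not tested.

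Pax8 also lay below 0 in 10 of 10 classes, from -0.61 to -0.16, with edgeR adjusted p values of 0.198 to 0.827, and its groups did not overlap in 3. In principal cells it measured 1093, 663 and 1012 CPM against 1322, 1182, 1402 and 1532 (-0.59 ± 0.24, edgeR adjusted p = 0.251). In proximal tubule it measured 498, 557 and 653 CPM against 705, 676, 742 and 803 (-0.38 ± 0.16, edgeR adjusted p = 0.277). Cycling nuclei, the third class, had -0.61 ± 0.21 (edgeR adjusted p = 0.204). Of genes tested in all classes, 8.96% were lower without overlap in 3 or more. Within set P1117 Pax8 was below 0 in 10 of 10 classes, from -0.48 to -0.01, and with the set as a term in 9 of 10, with 0.02 in fibroblasts.

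Sall1 lay above 0 in 9 of 10 classes, from -0.24 in thick ascending limb to 0.80 in fibroblasts. In fibroblasts, a class taken as background, it measured 118, 151 and 101 CPM against 80.1, 77.7, 70 and 69, without overlap (0.80 ± 0.26, edgeR adjusted p = 0.135). With the 9 genes allowed into the clustering this became 1.07 with an edgeR adjusted p of 0.0344. Only Wnt9b and Gata3 then entered the variable genes, and Sall1 did not. The share of all fibroblast genes that passed with that clustering is not given, and with the main clustering it was 0.837%. Within set P1117 Sall1 was 0.68 ± 0.30 in fibroblasts (edgeR adjusted p = 0.34) and above 0 in 6 of 10 classes.

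Emx2 lay above 0 in 8 of 9 classes, most in connecting tubule with 239, 149.5 and 125 CPM against 87.8, 146, 76.7 and 92.6 (0.74 ± 0.26, edgeR adjusted p = 0.176). 2-kidney replicate 2 lay inside the 1-kidney range there, and without it the log2 fold change was 0.97 with an adjusted p of 0.0472. Within set P1117 Emx2 was above 0 in only 2 of 9 classes. In principal cells, its highest class, the group means were both 199 CPM (-0.03 ± 0.26).

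Gata3 in principal cells measured 578, 497 and 721 CPM against 975, 813, 970.4 and 614 (-0.52 ± 0.24, edgeR adjusted p = 0.314). The groups overlapped through 2-kidney replicate 4. In connecting tubule it was 361 ± 28.6 against 314 ± 37.2 CPM (0.20 ± 0.18), and in intercalated cells 218 ± 11.2 against 230.3 ± 18.8 (-0.05 ± 0.19). Lhx1 in its main class, distal convoluted tubule, was 189 ± 9.34 against 185 ± 37.6 CPM (0.04 ± 0.20). In principal cells it was 27.1 ± 10.1 against 42 ± 7.32 CPM, without overlap (-0.55 ± 0.33, edgeR adjusted p = 0.416).

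Wnt9b was tested in principal cells alone, where the filter kept it. The values given above had a log2 fold change of -1.60 ± 0.81 (edgeR adjusted p = 0.37) with overlapping groups. The highest libraries, 2-kidney replicates 1 and 3, were also those with the most Slc14a2 in principal cells, 2307 and 393 CPM against 0 to 77.2 in the other 5 libraries, while 1-kidney replicate 1, the third for Wnt9b, had 0. Slc14a2 counts belong to the gene ENSRNOG00000061714, 1 of 2 genes with that symbol. Aqp4 was 85.3 CPM in 1-kidney replicate 2, the library with the least Wnt9b, and 366 to 506 in the others. The part of the sampled stretch of duct in the Wnt9b values was not tested.

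**Figure D4:**
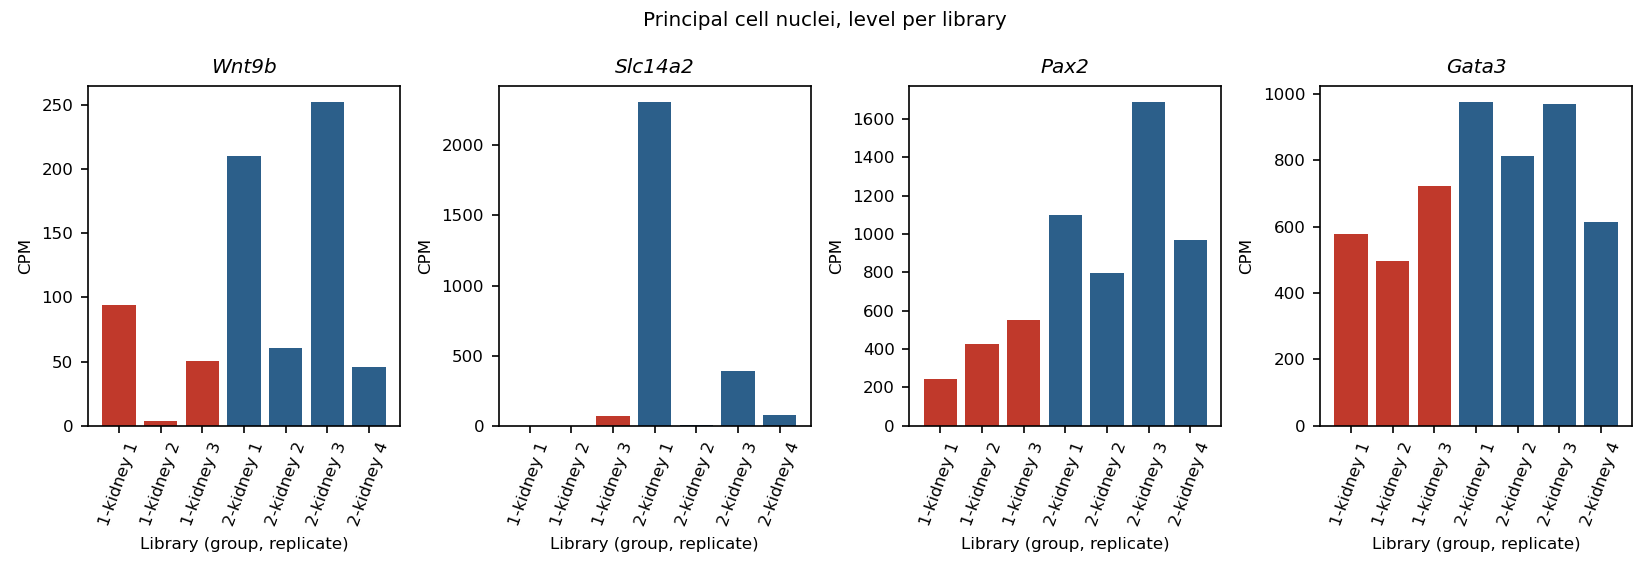
CPM per library in principal cell nuclei, bars from 0 (red 1-kidney, blue 2-kidney), for Wnt9b, Slc14a2, Pax2 and Gata3, each on its own axis. Wnt9b (252 and 210.2 CPM) and Slc14a2 (393 and 2307) were highest in 2-kidney replicates 3 and 1, while Pax2 was lower in all 3 1-kidney libraries.

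Wnt7b did not separate the groups in any of the 3 classes where it was tested. In principal cells it was 50.5 ± 24.5 against 65.6 ± 14.5 CPM (-0.32 ± 0.34, and -0.81 to 0.0 with 1 library left out) and in thick ascending limb 77.2 ± 42.9 against 88.7 ± 17.7 (-0.17 ± 0.31). Bmp7 lay below 0 in 8 of 10 classes. In podocytes it was 155 ± 22.6 against 195 ± 41.5 CPM, with overlap (-0.29 ± 0.22, edgeR adjusted p = 0.684). In intercalated cells, where it was lowest of the tubule classes, it was 51.1 ± 3.98 against 77.9 ± 15.9 CPM, without overlap (-0.58 ± 0.27, edgeR adjusted p = 0.409).

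**Figure D5:**
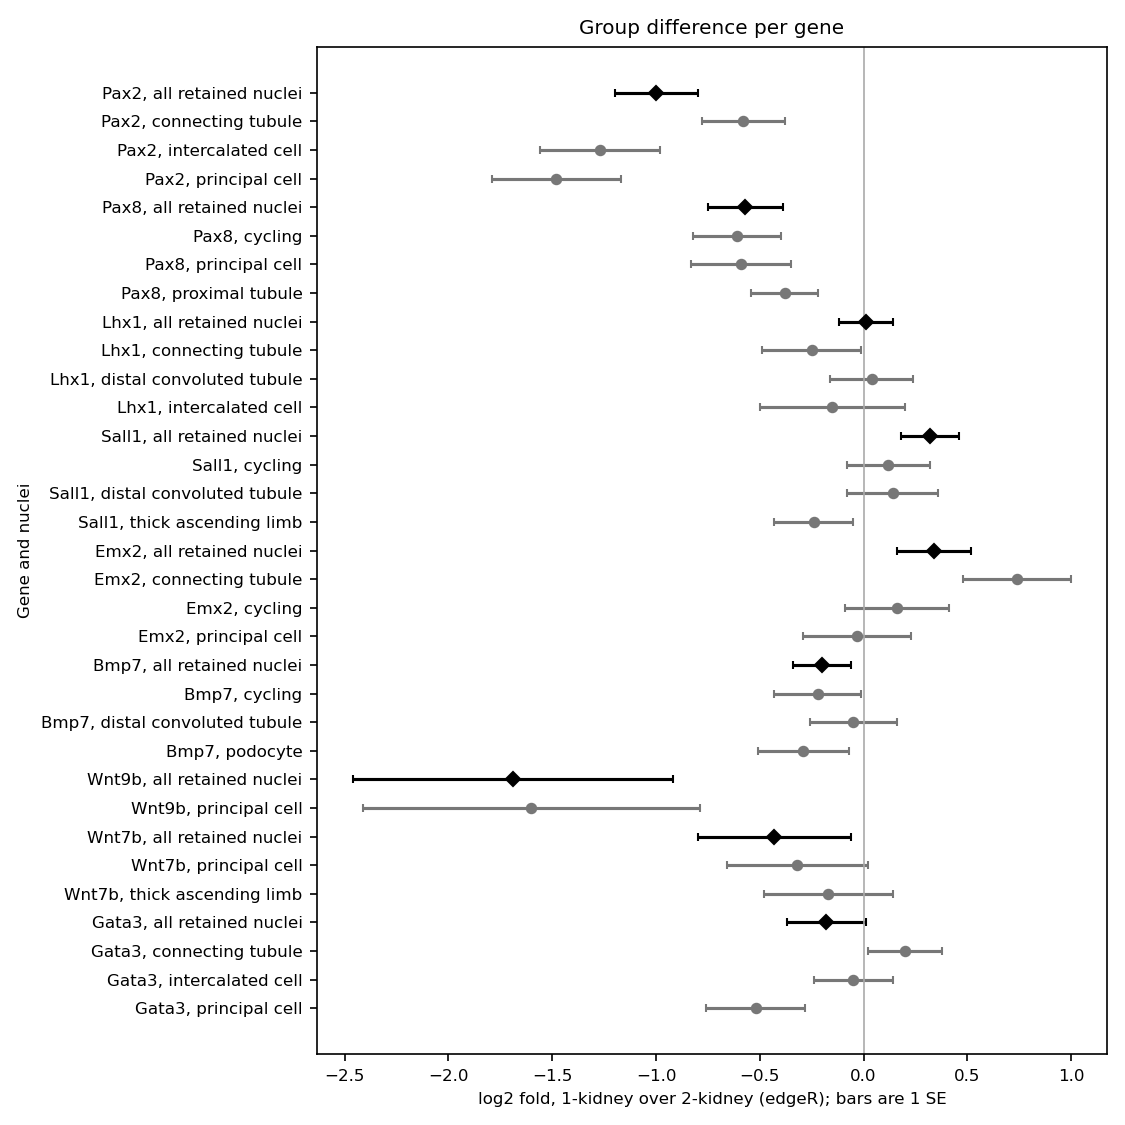
Log2 fold change of each gene, 1-kidney over 2-kidney, with bars of 1 SE from edgeR, over all retained nuclei (black diamonds) and in up to 3 of its highest classes that could be tested (grey circles). Pax2 and Pax8 lay below 0 throughout, with the lowest Pax2 value in principal cells (-1.48), while Wnt9b had the widest bars.

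Whether a gene differed more in one segment than in another was tested as an interaction, with the library as a block. The Pax2 log2 fold change in principal cells minus that in proximal tubule was -0.79 ± 0.26 (edgeR unadjusted p = 0.00615, adjusted p = 0.278), and minus that in thick ascending limb it was -0.54 ± 0.25 (adjusted p = 0.646). Sall1 differed by 0.97 ± 0.29 between principal cells and thick ascending limb (edgeR adjusted p = 0.437). None of the 9 genes passed in the 3 pairs of classes, with all libraries or within set P1117. The number of genes that passed was 0 of 10520 and 0 of 8955 in the pairs with principal cells (991 and 676 at an unadjusted p under 0.05), and 12 of 10703 for thick ascending limb against proximal tubule.

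The genes that work with these 9 gave no call over all nuclei in any of 7 lists. Their values are given for all libraries together, not within set P1117. Log2 fold changes lay below 0 for 50.9% of all genes (median -0.01), for 27 of 34 tested WNT pathway genes (median -0.29), 20 of 30 BMP pathway genes (-0.17) and 12 of 16 NOTCH pathway genes (-0.47). Those with the smallest p were Rnf43, a ligase that removes WNT receptors (60.6 ± 7.3 against 99.3 ± 19.6 CPM), the WNT co-receptor Lrp5 (55.3 ± 10.4 against 80.7 ± 6.58) and Apcdd1, a WNT inhibitor (1.6 ± 1.09 against 4.46 ± 1.42). Among BMP genes they were Smad6, an inhibitor of the pathway (39.1 ± 7.78 against 75.1 ± 9.95 CPM), Twsg1 and Kcp, and among NOTCH genes the ligand Jag1 (25.7 ± 3.68 against 46.8 ± 7.28 CPM), the receptor Notch2 and Heyl. Each had an edgeR adjusted p of 0.167 or more.

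Of 13 tested genes of nephron progenitors and the early nephron, 9 lay below 0, with Itga8 (-0.80 ± 0.22) and Sall2 (1.32 ± 0.36, from 1.64 against 0.676 CPM) having the smallest p. Of 17 ureteric bud and collecting duct genes 10 lay below 0, among them Tfap2b (65.6 ± 3.77 against 104 ± 15 CPM), and of 21 segment transcription factors 11, among them Prox1 (20.4 ± 4.85 against 43.5 ± 9.56 CPM). Of 19 partners of PAX, SALL and LIM factors 13 lay below 0. Across all lists and classes 1 gene passed, Ldb2, which encodes a protein that binds LIM factors such as Lhx1, in fibroblasts (554 ± 47 against 1222 ± 264 CPM, -1.11 ± 0.24, edgeR adjusted p = 0.0328). It was 1 of 12 partners tested in fibroblasts, where 53 of 6332 genes (0.837%) passed, and Lhx1 was not tested there.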

How the data were processed

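Single-nucleus RNA libraries of 7 rats (3 with 1 kidney, 4 with 2 kidneys) were analysed. The authors deposited raw UMI counts per gene and barcode. The submitters' processing notes name Cell Ranger 7.0, and no genome build or annotation is given in the sources used here. Barcodes under 200 genes or over 5% mitochondrial UMIs were dropped, and predicted doublets were removed by score at 0.8% per 1000 barcodes, since the automatic threshold marked at most 4 per library. Counts scaled to 10000 per nucleus, 2000 variable genes without the 9 studied, 30 components, 20 neighbours and Leiden resolution 1 (scanpy 1.11.5, leidenalg 0.10.2) gave 23 clusters, named by markers. Counts were summed per library, over all nuclei and per class with at least 50 nuclei in every library, and tested with edgeR 4.0.16 (R 4.3.3, TMM, filterByExpr, two-sided quasi-likelihood test, Benjamini-Hochberg over all genes tested). Single values had exact permutation tests. The tests were tested on simulated data. P-values measure the spread between libraries, each taken as 1 animal.

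The 9 genes and the gene lists were chosen with earlier results of these data known. Named genes were the 9, in their 3 highest tested classes, up to 3 genes most alike over classes (1 is not reported here), and in each list the genes past the threshold or else the 3 with the smallest p; further classes of Pax2 and Sall1, and Lhx1 and Bmp7 in 1 further class each, were added after their values were seen. Alternatives were DESeq2 1.42.0, RLE factors, no filter, set P1117 alone or as a term, each library left out, doublets kept, another resolution and the genes allowed into the clustering. Identifiers, not symbols, defined genes, since 148 symbols of the 25399 genes were shared.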

Additional observations from a re-analysis of the deposited data

Results flagged for a closer look

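Among 34 gene-by-class values of the 4 2-kidney libraries, 3 had 1 library far from the other 3 by Dixon's test at the 95% level. Chance flags about 1 in 20 such groups. Gata3 in intercalated cells was 258 CPM in 2-kidney replicate 2 and 218 to 224 in the others. Sall1 in thick ascending limb was 175 CPM in 2-kidney replicate 4 and 242 to 248 in the others. Wnt7b in thick ascending limb was 115 CPM in 2-kidney replicate 2 and 77.8 to 81.9 in the others.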

How the results depend on the processing

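The sign of Pax2 and Pax8 held under every alternative run for all nuclei, and leaving out 1 library gave log2 fold changes of -1.16 to -0.86 and -0.67 to -0.47. No paired analysis was possible because the replicate numbers follow accession order and pair no animals.

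Genes passing with edgeR depended on the settings. The counts below are not shares where no total is given, since the number of genes tested differed between settings. DESeq2 was run on the genes kept by the low-count filter and gave some of them no adjusted p. It passed 480 of 14877 genes over all nuclei (2 of the 9). Proximal tubule had 123 of 11159, principal cells 118 of 8286 and thick ascending limb 68 of 7762 (1 of the 9 in each). Connecting tubule had 51 of 6524, cycling nuclei 51 of 8005, distal convoluted tubule 32 of 7014 and intercalated cells 1 of 6693. Without the low-count filter 325 passed in principal cells, 178 in thick ascending limb, 144 in distal convoluted tubule and 38 in intercalated cells (1 of the 9 in each), 208 in cycling nuclei, 148 in connecting tubule, 58 in podocytes and 26 in proximal tubule. Within set P1117, 26 passed in connecting tubule, 7 in proximal tubule, 1 each in intercalated cells and distal convoluted tubule and 0 in podocytes, and 0 genes differed between thick ascending limb and proximal tubule. With the set as a term 9 passed in connecting tubule, 1 each in intercalated cells, proximal tubule and distal convoluted tubule and 0 in podocytes. In thick ascending limb RLE factors left 1, resolution 0.5 left 0, kept doublets left 0 and the 9 genes allowed into the clustering left 2, with 3 in principal cells. Kept doublets left 0 in cycling nuclei and 1 in podocytes.

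Leaving out 1 library gave 0 to 128 genes in connecting tubule, 0 to 646 in cycling nuclei, 0 to 107 in distal convoluted tubule, 0 to 34 in intercalated cells, 0 to 64 in principal cells and 0 to 181 in thick ascending limb (0 to 1 of the 9 in each), 0 to 158 in podocytes and 0 to 1 in proximal tubule. For the interactions it gave 0 to 231 (principal cells and proximal tubule), 0 to 1 (principal cells and thick ascending limb) and 0 to 133 (thick ascending limb and proximal tubule).

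Besides the sign changes given in the report, the following log2 fold changes turned sign. Set P1117 alone gave Lhx1 0.15 in intercalated cells, Sall1 -0.13 in distal convoluted tubule and -0.07 in cycling nuclei, and Emx2 -0.07 in cycling nuclei, and the set as a term gave 0.15, -0.12, -0.07 and -0.07. Emx2 in principal cells was 0.11 at resolution 0.5 and 0.08 with doublets kept. Lhx1 without the filter was -0.03 over all nuclei and in distal convoluted tubule, and -0.01 over all nuclei without thin limb and the Fst-led cluster. Leaving out 1 library gave Bmp7 -0.13 to 0.01 and Lhx1 -0.07 to 0.15 in distal convoluted tubule, Emx2 -0.03 to 0.35 in cycling nuclei and -0.23 to 0.09 in principal cells, Gata3 -0.10 to 0.02 and Lhx1 -0.32 to 0.08 in intercalated cells, Lhx1 -0.02 to 0.05 over all nuclei and Wnt7b -0.71 to 0.20 in thick ascending limb. In further classes signs turned too. Within set P1117, Wnt7b in proximal tubule went from 0.02 to -0.47 and Bmp7 in principal cells from 0.04 to -0.21. Gata3 went from 0.09 to -0.21 in thick ascending limb and from 0.08 to -0.05 in distal convoluted tubule. The cause of the sign changes was not tested. Over all nuclei the largest error among the 9 genes was that of Wnt9b, which had 726 UMIs.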
